A study of Homo sapiens with 27 samples.

Results

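The break sensing and repair genes are 40 genes that detect a double-strand break in DNA, signal it or rejoin it. They were found in the count table by their Ensembl gene IDs; 40 of 40 were present among 14008 genes, and 40 of 40 passed the filter on low counts in each of the 4 fits behind the results. They took 0.171% to 0.298% of the counts of a library. The samples were teloHAEC, human aortic endothelial cells immortalised with telomerase, electroporated with Cas9 protein bound to a guide RNA, 150000 cells per replicate, and collected after 2 days. Messenger RNA was read at its 3′ end (QuantSeq), so that counts do not grow with transcript length. The experiment comprised 27 libraries in 2 sets. In set A, 4 libraries had guides on either side of an enhancer of SMAD3, 4 had a guide against HPRT and 4 a non-targeting guide. In set B, 4 had guides around an enhancer of LDAH (also named C2orf43), 4 the HPRT guide and 7 the non-targeting guide.

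All 6 groups thus received Cas9 and the electric pulse, also the negative controls, whose guide matches no site in the genome; no untreated cells were analysed here. The HPRT guide and the deletion guides cut DNA. The comparison with the negative control thus asks how the transcripts of the repair genes differ after such an edit. In it the cut, the loss of the targeted element and the number of sites cut cannot be told apart. Cells were bulk populations in which edited and unedited cells are mixed, and the labels give no share of edited cells. The labels do not say that replicates were separate cultures beyond their electroporations, so p-values may measure technical spread only.

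A double-strand break is bound by the MRE11-RAD50-NBN complex, which activates the kinase ATM; single-stranded DNA coated by the RPA complex activates the kinase ATR. ATM marks the surrounding chromatin by phosphorylating the histone H2AX, and MDC1, RNF8, RNF168 and TP53BP1 are assembled there in turn. Most breaks made by Cas9 are closed by classical end joining, in which the Ku dimer (XRCC5 and XRCC6) holds the ends and recruits the kinase encoded by PRKDC. Homologous recombination needs a sister chromatid, so many of its genes are transcribed mainly in cells that replicate DNA. Much of the early response works through modification of proteins that are already present, which RNA counts do not show.

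Total counts were 3.43 to 7.75 M (mega) per library, and a count of 0 allows up to 0.387 to 0.875 CPM (reads scaled to a common library size), taking 3 counts as the limit; such limits cover counting error only. In 7 libraries expression across all genes stood apart, with a median correlation to the other libraries of the set more than 3 scaled median absolute deviations below the median. They were replicate 3 of the HPRT-targeted and replicate 4 of the SMAD3 deletion group in set A. In set B they were replicate 4 of the LDAH deletion, replicates 6 and 7 of the negative control and replicates 2 and 4 of the HPRT-targeted group. Results below are given with them and, for a choice of members, without them. Ribosomal protein genes took 14.5% and 15.6% of counts in the 2 of set A and 14.2% to 16.4% in the 5 of set B, against 11.2% to 13.7% and 8.76% to 10.7% in the others; the part of this in the results was not tested. Of the endothelial markers, 15 of 15 were in the table, at a summed 1230 to 2560 CPM per library. Of 11 epithelial and blood markers only CD14 was in the table, at 0 to 4.03 CPM, and of 11 smooth muscle and fibroblast markers only ACTA2 and PDGFRA, at a summed 14.6 to 50.3 CPM. The log2 fold change of ACTA2 was 0.42 ± 0.18 for HPRT targeting in both sets (unadjusted p 0.0286) and 0.45 ± 0.16 for all cutting guides (unadjusted p 0.00805), and that of CD14 was 1.38 ± 0.57 for all cutting guides (unadjusted p 0.0220). The adjusted p was above 0.9 for each in edgeR's quasi-likelihood test, and their part in the values of the repair genes was not tested. The targeted genes stood at 94.6 ± 15.1 CPM against 128 ± 9.21 CPM for SMAD3 in its deletion and control (SD, n = 4 and 4), at 7.31 ± 3.44 against 12.5 ± 3.60 CPM for LDAH (n = 4 and 7). HPRT1 stood at 32.4 ± 6.56 against 40.8 ± 8.11 CPM in set A and 43.2 ± 13.2 against 50.8 ± 21.9 CPM in set B. A guide can disrupt HPRT1 without lowering its RNA, so that level does not check the label.

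No member passed the adjusted threshold in any of 10 comparisons. In edgeR's quasi-likelihood test, adjusted by Benjamini-Hochberg over all genes, 0 of 40 members and 0% of all genes were called at 0.05. At an unadjusted p under 0.05 there were 1 to 3 members in each of the 6 comparisons with the negative control, most of them lower. The folds of most members were close to 0. Intervals were narrow for some genes with many reads, such as XRCC5, and wider for others, such as RAD50. The 95% interval lay within 1 log2 unit of 0 for 33 of 40 members for HPRT targeting in set A, 30 for the SMAD3 deletion, 24 each for HPRT targeting and the LDAH deletion in set B, 30 for HPRT targeting in both sets and 33 for all cutting guides in both sets. The last of these used the 16 libraries with an HPRT or deletion guide and the 11 negative controls, fitted as group means. Within each set, the negative control was subtracted from the mean of the HPRT and deletion groups, and these differences were averaged over the sets. Comparisons within a set share their control libraries with each other and with the comparisons of both sets, so these are no independent repeats. Comparisons of set A alone share no library with those of set B alone.

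**Figure D1:**
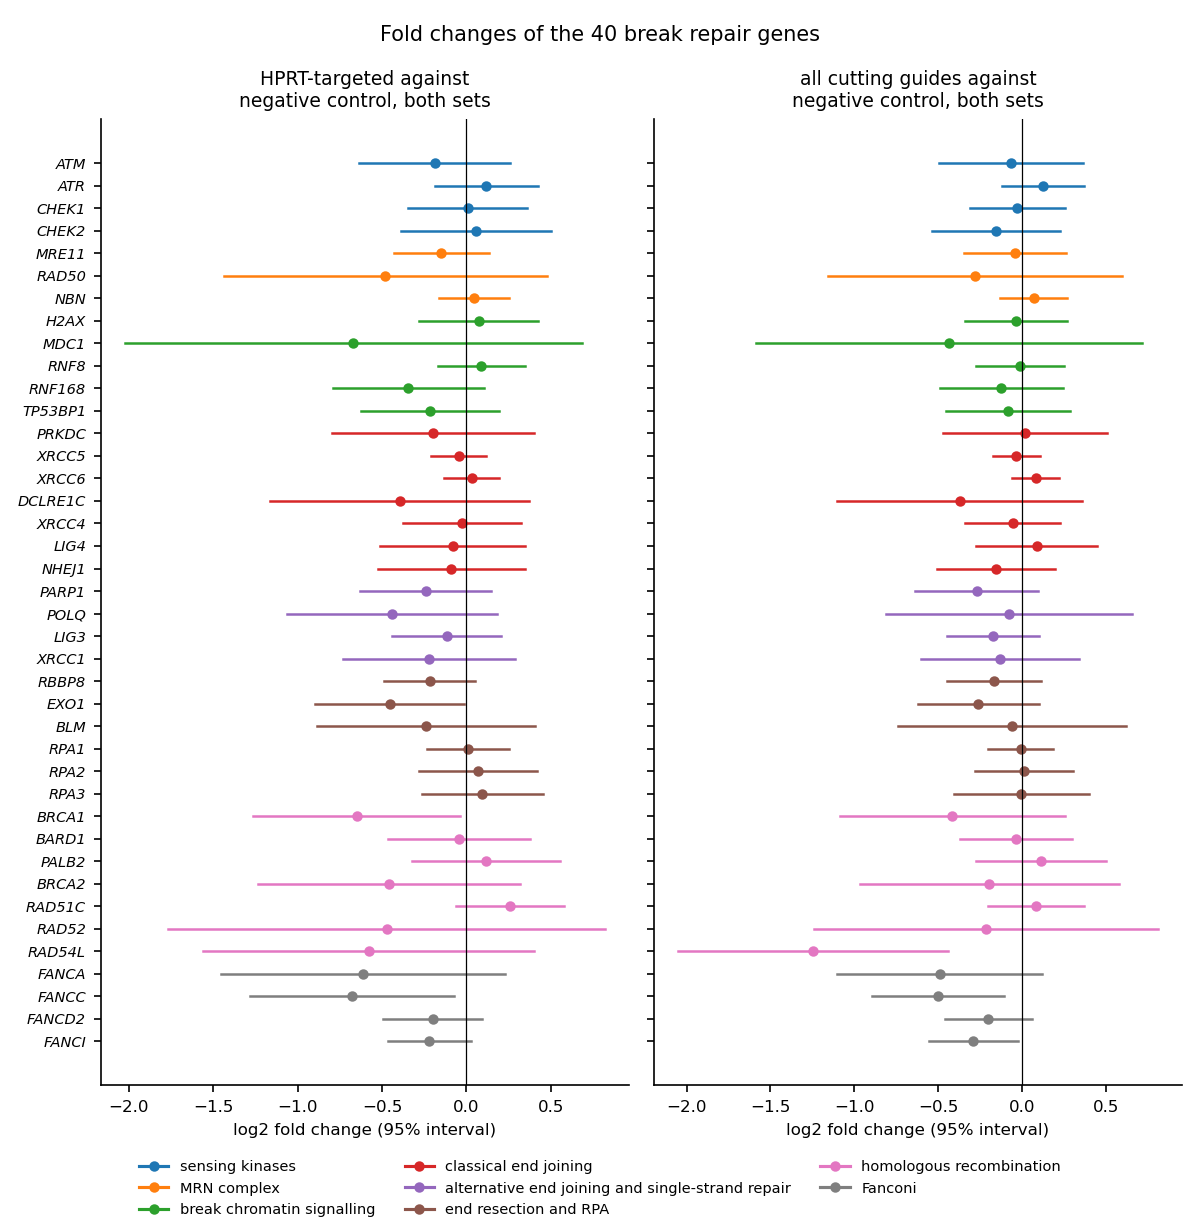
Log2 fold change of each of the 40 members, with its 95% interval (horizontal lines), for the HPRT guide (left) and for all cutting guides (right) against the negative control in both sets; colours mark the role. Most intervals cross 0; RAD54L, FANCC and FANCI on the right, and FANCC, BRCA1 and EXO1 on the left, lie below it.

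Most members had a log2 fold change below 0 in each of the 6 comparisons with the negative control, by a narrow margin in the LDAH deletion. For HPRT targeting in set A, 26 of 40 had a log2 fold change below 0, against 51% of 11467 genes, with a median of -0.11 against -0.00499 for all genes. At an unadjusted p under 0.05, 1 member was lower (1.12% of genes) and 0 were higher (1.12%). For the SMAD3 deletion, 30 of 40 were below 0 (49.7% of genes), with a median of -0.12; 1 was lower (2.74%) and 1 higher (4.05%). For HPRT targeting in set B, 30 of 40 were below 0 (53.1% of 11769 genes), with a median of -0.19 against -0.02; 1 was lower (0.816%) and 0 were higher (0.935%). For the LDAH deletion 21 of 40 were below 0 (48.3%), with a median of -0.02 against 0.01; 2 were lower (3.33%) and 0 higher (1.28%). In both sets together, HPRT targeting left 28 of 40 below 0 (53.2% of 11836 genes), with a median of -0.19 against -0.02; 3 were lower (1.39%) and 0 higher (1.81%). For all cutting guides 32 of 40 were below 0 (53.2% of 12055 genes), with a median of -0.08 against -0.01; 3 were lower (2.10%) and 0 higher (1.95%). The median of the members also varied between single control libraries, with an SD of 0.0479 log2 units in set A, 0.238 in set B and 0.143 as the mean of both. The medians for HPRT targeting and the LDAH deletion in set B and that for all cutting guides were smaller in size than these SDs. The SDs describe single libraries and the medians compare group means, so this comparison is no test.

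Without the 7 libraries the median of the members was -0.12, -0.20 and -0.17 for the HPRT guide in set A, set B and both, and -0.03 for the SMAD3 deletion. It was above 0 for the LDAH deletion and below 0 for all cutting guides. In set B 2 of 4 HPRT-targeted libraries stand apart, so that group without the 7, here and below, is the other 2. Members below 0 were 31 in HPRT targeting in set A (50.8% of genes), 22 in the SMAD3 deletion (50.7%), 33 in HPRT targeting in set B (51.3%), 17 in the LDAH deletion (50.1%), 35 in HPRT targeting in both sets (51.8%) and 32 in all cutting guides (51.6%). Members lower at an unadjusted p under 0.05 numbered 4 (3.02% of genes), 2 (5.35%), 5 (1.85%), 5 (8.54%), 6 (3.82%) and 7 (5.94%) in the same order. The SMAD3 deletion also had 3 members higher (5.29% of genes): PALB2, PRKDC and NBN. In HPRT targeting the share of members that were lower was above that of all genes; in the LDAH deletion, at 5 of 40, it was close to the 8.54% of all genes. The members lower for the HPRT guide in both sets without the 7 libraries were BRCA1, EXO1, FANCI, FANCD2, BRCA2 and RAD52.

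Among the sensing kinases, ATM and ATR start the signal and CHEK1 and CHEK2 pass it on to the cell cycle. CHEK1, which restrains entry into mitosis, stood in HPRT-targeted libraries at 32, 41.1, 41.6 and 43.7 CPM in set A and 32.8, 41.9, 44.3 and 86.9 CPM in set B. Its negative controls were at 36.8, 39.9, 42.2 and 43.4 CPM in set A and 31.4 to 72.2 CPM, median 50.8, in set B. The groups overlapped in full. Group means of ATM ranged from 23.8 to 45.1 CPM and those of ATR from 19.6 to 41.2 CPM. Of the 4 kinases, 1 was below 0 for HPRT targeting in both sets and 3 for all cutting guides, with medians of 0.03 and -0.05.

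CHEK2, which phosphorylates p53 and BRCA1, was lower in the LDAH deletion. Its libraries stood at 2.89, 3.91, 4.98 and 6.52 CPM, against 6.19 to 11.2 CPM, median 7.63, among the set B controls. The highest deletion library, the one that stands apart, lay above the lowest control, so the groups overlapped by 1 library on each side. Its log2 fold change was -0.85 ± 0.37 (SE), with an unadjusted p of 0.0351 and an adjusted p of 1.00 in edgeR's quasi-likelihood test. In the other groups CHEK2 had means of 6.62 to 8.53 CPM.

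In the MRE11-RAD50-NBN complex, MRE11 is the nuclease, RAD50 the ATPase that bridges the ends and NBN the subunit that binds ATM. Group means were 35.4 to 53.9 CPM for MRE11, 77.3 to 147 CPM for RAD50 and 84.7 to 109 CPM for NBN. RAD50 in the negative control of set A stood at 122, 144, 159 and 161 CPM and in the HPRT-targeted group at 57.4, 117, 139 and 146 CPM. The value of 57.4 CPM came from the library that stands apart, and the other 3 overlapped the controls. In set B the HPRT-targeted libraries were at 12.3, 27.9, 119 and 150 CPM against 8.18 to 174 CPM, median 150, in controls. For HPRT targeting in both sets, the log2 fold change of RAD50 was -0.48 ± 0.46 with all libraries and -0.16 ± 0.09 without the 7.

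**Figure D2:**
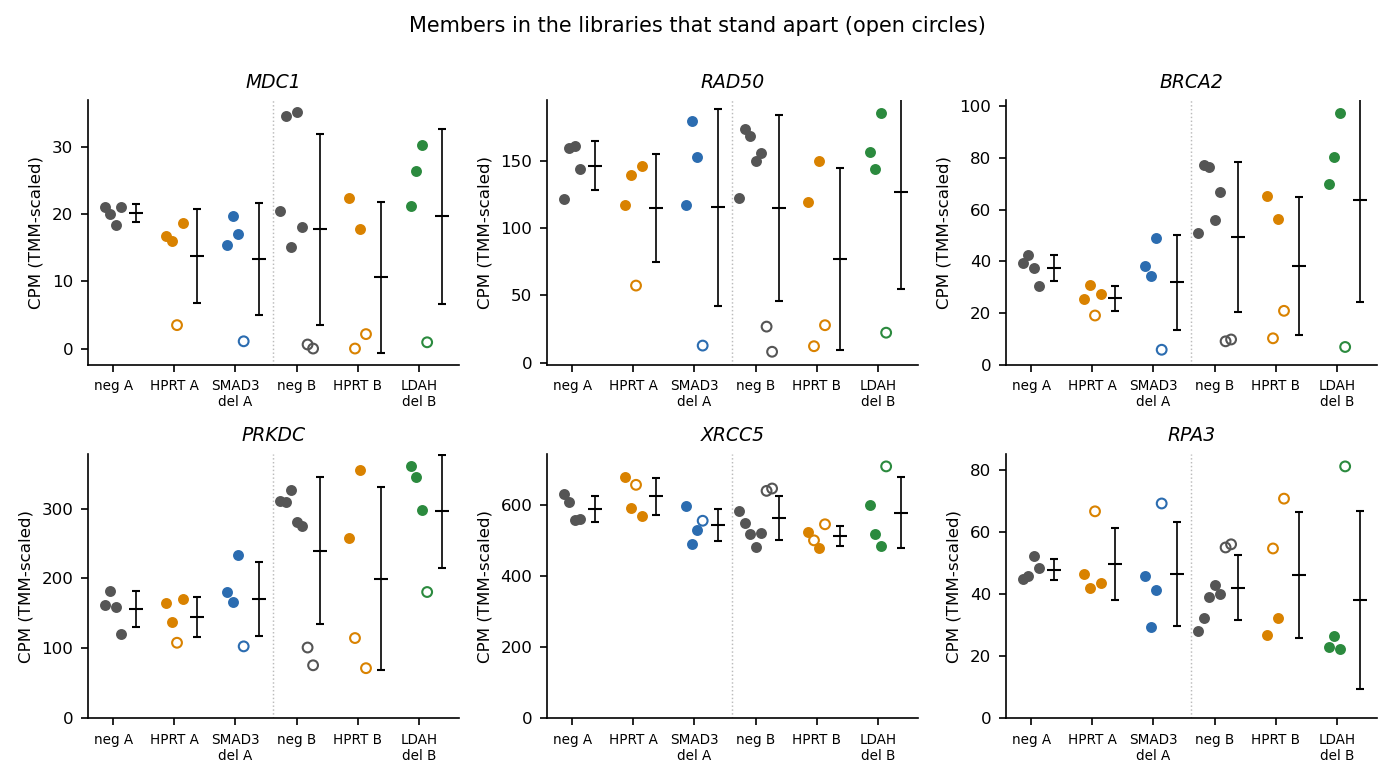
CPM of 6 members in every library by group, with the mean ± SD at the right of each group and the 7 libraries that stand apart as open circles. MDC1, RAD50, BRCA2 and PRKDC are low in the open circles of both sets, XRCC5 is not, and RPA3 is high in them.

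In the chromatin signal around a break, H2AX is the histone that carries the mark, MDC1 reads it, RNF8 and RNF168 attach ubiquitin, and TP53BP1 binds the modified chromatin and protects ends from resection. H2AX had group means of 39.2 to 99.1 CPM; the method primes on a poly(A) tail, and H2AX also has a transcript form without one, which was not read. RNF8 had means of 34.9 to 52.7 CPM, RNF168 of 42.4 to 65.3 CPM and MDC1 of 10.6 to 20.2 CPM. TP53BP1 stood at 64.8, 66.2, 68.2 and 70.4 CPM in the controls of set A and at 50.9, 60.5, 62.3 and 64.9 CPM in the HPRT-targeted libraries there. In set B its controls were at 31.2 to 101 CPM, median 81.0, and its HPRT-targeted libraries at 39.5, 47.3, 79.7 and 80.9 CPM. The groups overlapped by a narrow margin in set A and widely in set B. For all cutting guides the 5 genes of this class had a median of -0.08, and 5 of 5 were below 0; 0 of them were below an unadjusted p of 0.05.

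No gene of classical end joining, the main route for closing a Cas9 cut, had an unadjusted p under 0.05 in the comparisons of both sets. XRCC5, which encodes the larger Ku subunit, stood at 557, 560, 608 and 632 CPM in the negative control of set A, at 570, 592, 657 and 680 CPM with the HPRT guide and at 490, 530, 556 and 597 CPM in the SMAD3 deletion. In set B it stood at 483 to 647 CPM, median 550, in controls, at 480, 501, 524 and 546 CPM with the HPRT guide and at 485, 520, 600 and 709 CPM in the LDAH deletion. All of these groups overlapped their controls, and the interval for all cutting guides ran from -0.18 to 0.11 on the log2 scale. XRCC6, the other Ku subunit, stood in the LDAH deletion at 276, 294, 326 and 334 CPM against 228 to 292 CPM, median 263, and the groups overlapped. Its log2 fold change was 0.23 ± 0.13, with an unadjusted p of 0.0961 and an adjusted p of 1.00 in edgeR's quasi-likelihood test.

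PRKDC, which encodes the catalytic subunit of DNA-dependent protein kinase, had group means of 145 to 296 CPM. DCLRE1C encodes the nuclease Artemis, which trims ends, and had means of 6.93 to 12.5 CPM. The ligase LIG4 (8.96 to 17.9 CPM) and its partners XRCC4 (15.1 to 23.1 CPM) and NHEJ1 (6.14 to 9.02 CPM) complete the joint. Of the 7 genes, 6 were below 0 for HPRT targeting in both sets and 4 for all cutting guides, with medians of -0.08 and -0.03.

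Ends that are not closed this way can be joined through short homologies by POLQ, a polymerase, with LIG3 as ligase; PARP1, a sensor of broken strands, and XRCC1, a scaffold, act there and in single-strand repair. PARP1 stood at 192, 199, 201 and 214 CPM in the controls of set A, at 132, 147, 184 and 202 CPM with the HPRT guide and at 85.8, 150, 182 and 206 CPM in the SMAD3 deletion. In set B its controls were at 82.6 to 247 CPM, median 186, its HPRT-targeted libraries at 104, 126, 168 and 212 CPM and its LDAH deletion libraries at 75.4, 153, 174 and 195 CPM. The lowest library of each cutting group was one that stands apart, and every group overlapped its control. Group means were 4.03 to 9.51 CPM for POLQ, 20.6 to 31.2 CPM for LIG3 and 4.50 to 8.28 CPM for XRCC1. The 4 genes were all below 0 for HPRT targeting in both sets (median -0.23) and for all cutting guides (median -0.15), with 0 below an unadjusted p of 0.05.

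End resection turns a break into single-stranded DNA: RBBP8 (CtIP) starts it, EXO1 and the helicase BLM extend it, and RPA1, RPA2 and RPA3 coat the strand. RPA1 stood at 79.7, 80.8, 83.1 and 83.2 CPM in the controls of set A and at 74.8, 79.3, 89.6 and 103 CPM with the HPRT guide there. In set B it was at 52.6 to 107 CPM, median 71.4, in controls and at 56.1, 64.8, 81.5 and 84.8 CPM with the HPRT guide. The HPRT-targeted libraries of RPA1 lay on both sides of the controls. Group means were 35.5 to 44.0 CPM for RPA2, 38.1 to 49.6 CPM for RPA3, 25.7 to 45.6 CPM for RBBP8 and 9.29 to 20.3 CPM for BLM. RPA3 in the LDAH deletion stood at 22.3, 22.8, 26.4 and 81.0 CPM, the last in the library that stands apart, against 28.1 to 56 CPM, median 40.1, in controls. Its log2 fold change there was -0.15 ± 0.36 with all libraries and -0.63 ± 0.20 without the 7, with an unadjusted p of 0.00450 and an adjusted p of 0.123 in edgeR's quasi-likelihood test. For all cutting guides RPA3 was at -0.33 ± 0.10 without the 7 libraries (unadjusted p 0.00192, adjusted p 0.181). RBBP8 had the smallest p of the members for the HPRT guide in set A without the 7 libraries, at -0.38 ± 0.13. Its unadjusted p was 0.00879 and its adjusted p 0.825 in edgeR's quasi-likelihood test. With the HPRT guide in set B it was then at -0.07.

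EXO1 was lower with the HPRT guide in set B, at 5.95, 6.48, 9.66 and 11 CPM against 8.93 to 17.3 CPM, median 10.6, in controls. In set A it was at 2.71, 3.16, 5.67 and 6.66 CPM against 4.82, 5.68, 6.07 and 6.43 CPM. The groups overlapped in both sets. Over both sets its log2 fold change was -0.45 ± 0.21, unadjusted p 0.0437, and the adjusted p in edgeR's quasi-likelihood test was 0.937. Set B alone gave -0.54 ± 0.31, unadjusted p 0.105. Without the 7 libraries the value for both sets was -0.75 ± 0.24, with an adjusted p of 0.530 in the same test.

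In homologous recombination, BRCA1 and BARD1 form a ubiquitin ligase that promotes resection, PALB2 and BRCA2 load the recombinase, RAD51C belongs to its helper complexes, RAD52 anneals strands and RAD54L is a motor protein that opens the template. Means were 31.1 to 49.8 CPM for BARD1 and 18.9 to 30.4 CPM for RAD51C. BRCA2 stood at 30.3, 37.3, 39.1 and 42.4 CPM in the controls of set A and at 19, 25.4, 27.2 and 30.9 CPM with the HPRT guide. In set B it was at 9.02 to 77.1 CPM, median 56.2, in controls and at 10.2, 20.8, 56.5 and 65.1 CPM with the HPRT guide. The groups overlapped by 1 library on each side in set A and widely in set B. In set A the log2 fold change of BRCA2 was -0.54 ± 0.40, unadjusted p 0.195, and -0.42 ± 0.15 without the 7 libraries, unadjusted p 0.00951, adjusted p 0.825 in edgeR's quasi-likelihood test.

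BRCA1 was the member with the smallest p for the HPRT guide in both sets once the 7 libraries were left out. In set A the HPRT-targeted libraries stood at 18.7, 28.3, 28.7 and 34.5 CPM and the controls at 36.2, 37.6, 40.1 and 43.5 CPM, without overlap. In set B the HPRT-targeted libraries stood at 14.0, 22.7, 34.6 and 44.8 CPM and the controls at 11.1 to 75.3 CPM, median 54.6. The 2 control libraries that stand apart, at 11.1 and 17.2 CPM, make the groups overlap there. The HPRT-targeted libraries at 14.0 and 22.7 CPM stand apart too. Without all of these, 34.6 and 44.8 CPM with the HPRT guide lay below the other 5 controls, from 48.5 CPM up. For BRCA1 the log2 fold change was -0.52 ± 0.38 in set A (unadjusted p 0.194) and -0.65 ± 0.30 in both sets (unadjusted p 0.0393), with an adjusted p of 0.937 in edgeR's quasi-likelihood test. Without the 7 libraries it was -0.37 ± 0.14 in set A, -0.65 ± 0.25 in set B and -0.50 ± 0.12 in both, the last with an unadjusted p of 0.000326 and an adjusted p of 0.238 in the same test. The deletion libraries were at 5.58, 27.2, 38.2 and 38.3 CPM (SMAD3) and 6.52, 42.7, 64.9 and 97.0 CPM (LDAH), and both groups overlapped their controls.

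RAD52 was lower with the HPRT guide in set A, at 0.542, 0.951, 1.46 and 1.47 CPM against 1.10, 2.47, 2.88 and 3.08 CPM. The groups overlapped through 1 control, and the counts behind these levels were few. The log2 fold change was -1.14 ± 0.41, unadjusted p 0.0144, adjusted p 0.988 in edgeR's quasi-likelihood test. In set B RAD52 was spread from 0 to 6.42 CPM in controls, median 2.43, and from 0.258 to 4.51 CPM with the HPRT guide. PALB2 was the 1 member higher at an unadjusted p under 0.05, in the SMAD3 deletion, at 8.13, 8.55, 11.2 and 11.8 CPM against 4.95, 6.36, 6.83 and 8.26 CPM in controls. These overlapped by 1 library on each side, and the HPRT-targeted libraries of set A were at 6.92 to 7.45 CPM. Its log2 fold change was 0.59 ± 0.20, unadjusted p 0.0102, adjusted p 0.702 in edgeR's quasi-likelihood test. In the LDAH deletion PALB2 was at 5.48 to 13.7 CPM against 4.64 to 19.6 CPM.

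RAD54L had the largest fold of any member in these 6 comparisons. In the LDAH deletion it stood at 0, 0.340, 0.356 and 1.16 CPM, which are 0 to 7 counts per library and 11 in all. The negative control of set B stood at 1.99 to 10.6 CPM, median 3.61, with 13 to 64 counts per library and 218 in all. Every deletion library lay below every control. The log2 fold change was -3.41 ± 0.97, with a 95% interval from -5.46 to -1.37; the unadjusted p was 0.00262 and the adjusted p 0.702 in edgeR's quasi-likelihood test. RAD54L passed the threshold in 2 alternatives, DESeq2, at -3.48 with an adjusted p of 0.0463, and without the 7 libraries, at -3.08 with an adjusted p of 0.0380. In the latter, 1 of 40 members was called, against 1.74% of 12153 genes.

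Levels of RAD54L in the other groups were mostly higher. The HPRT-targeted libraries of set B were at 0, 2.58, 4.15 and 4.39 CPM, with a log2 fold change against the control of -0.98 ± 0.82. The 2 lowest of these stand apart, and without the 7 libraries the value was -0.34. The SMAD3 deletion was at 1.62, 2.80, 3.32 and 4.40 CPM against 3.64, 3.64, 4.04 and 6.36 CPM in its control, and the HPRT-targeted libraries of set A were at 2.10, 2.54, 4.88 and 7.16 CPM. The SMAD3 deletion gave -0.51 ± 0.40. The LDAH deletion lay below the HPRT-targeted group of its set by a log2 difference of -2.43 ± 1.00 (unadjusted p 0.0269, adjusted p 0.948 in edgeR's quasi-likelihood test). The difference between the 2 deletion effects was -2.85 ± 1.00 (unadjusted p 0.00882, adjusted p 1.00). The low values for all cutting guides together, -1.25 ± 0.39 with an unadjusted p of 0.00366, include the LDAH deletion.

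The counts of RAD54L need a reservation. It lies on the forward strand of chromosome 1 (46247688 to 46278473, GRCh38, GENCODE 29), and its last exon of 402 bases, where 3′ reads fall, lies whole within LRRC41 on the other strand. LRRC41 had 12493 counts over all libraries and RAD54L 576, and whether the counting used strand is not given in the sources used here. LRRC41 in the LDAH deletion was at 15.8, 36.0, 43.8 and 144 CPM against 58.4 to 141 CPM in the controls of set B; 3 of the 4 deletion libraries lay below every control and the library that stands apart lay above them. Its part in the RAD54L values was not tested. Last exons of TP53BP1, DCLRE1C, LIG3, FANCA and FANCI also share bases with a counted gene on the other strand, namely TUBGCP4, SUV39H2, RFFL, ZNF276 and POLG. On the same strand, RAD50 shares 3902 of 4167 last-exon bases with AC116366.3, and NHEJ1 shares 1127 of 1139 with AC068946.1. Neither of these genes is in the count table.

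**Figure D3:**
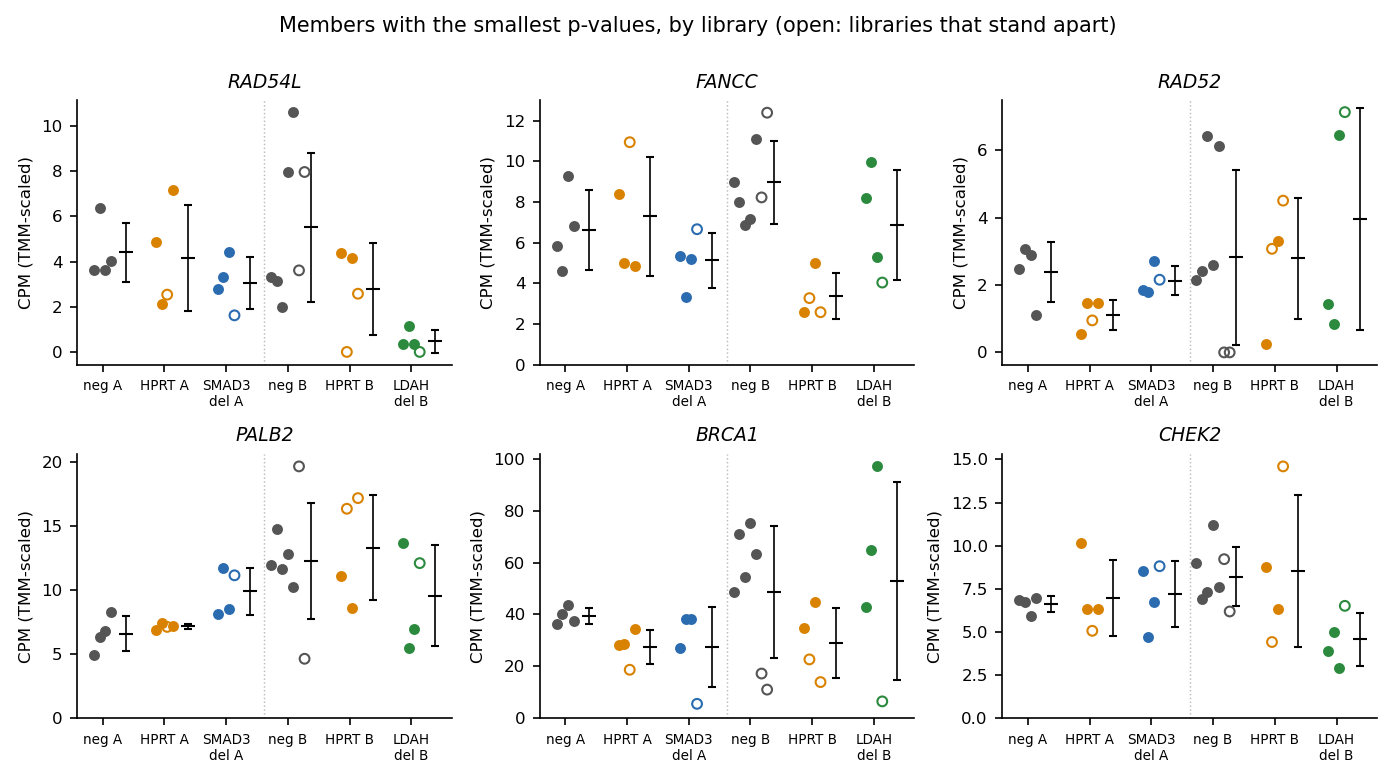
CPM of 6 members in every library by group, with the mean ± SD at the right of each group and the libraries that stand apart as open circles. RAD54L is at 0 to 1.16 CPM in the 4 LDAH deletion libraries, and FANCC is lower with the HPRT guide in set B but not in set A.

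The Fanconi genes repair crosslinks and protect stalled forks: FANCA and FANCC belong to the core complex, which attaches ubiquitin to the pair FANCD2 and FANCI. FANCC was lower with the HPRT guide in set B, at 2.58, 2.58, 3.27 and 4.98 CPM against 6.88 to 12.4 CPM, median 8.22, without overlap. The log2 fold change was -1.40 ± 0.37, with an unadjusted p of 0.00139, the second smallest of all genes in that comparison, and an adjusted p of 0.999 in edgeR's quasi-likelihood test. In set A the HPRT-targeted libraries were at 4.84, 5.02, 8.41 and 10.9 CPM and the controls at 4.62, 5.82, 6.79 and 9.26 CPM, a full overlap, with a log2 fold change of 0.15 ± 0.31. The difference between the sets was -1.54 ± 0.47, unadjusted p 0.00274 and adjusted p 1.00. Both sets gave -0.68 ± 0.29 (unadjusted p 0.0302), and all cutting guides -0.50 ± 0.19 (unadjusted p 0.0149).

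Without the 7 libraries FANCC was at -1.12 ± 0.48 in set B, with 2 HPRT-targeted libraries left there, and -0.10 in set A. The difference of -1.02 had an unadjusted p of 0.0636 in edgeR's quasi-likelihood test. In the SMAD3 deletion FANCC stood at 3.32, 5.18, 5.33 and 6.66 CPM and in the LDAH deletion at 4.03, 5.27, 8.18 and 9.97 CPM, both overlapping their controls. Reads of FANCC were few at these levels. Both sets had the HPRT guide, and a difference between them cannot be told apart from handling.

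FANCI was lower in the SMAD3 deletion, at 19.2, 37.7, 43.2 and 44.8 CPM against 44.9, 49.8, 52.0 and 52.2 CPM, without overlap. The log2 fold change was -0.45 ± 0.20 (unadjusted p 0.0421, adjusted p 0.730 in edgeR's quasi-likelihood test). The lowest library stands apart, and without the 7 libraries the value was -0.25 ± 0.11. In set B, the LDAH deletion was at 21.8, 22.8, 34.0 and 41.0 CPM and the HPRT-targeted group at 23.3, 26.4, 32.1 and 40.1 CPM, against 28.3 to 44.7 CPM, median 34.9. With the 7 libraries left out these 2 groups were at -0.56 ± 0.21 (unadjusted p 0.0120, adjusted p 0.201) and -0.63 ± 0.24 (unadjusted p 0.0161, adjusted p 1.00). The HPRT-targeted group of set B then held 2 libraries. With the HPRT guide in set A, FANCI was at 39.0, 41.8, 45.9 and 49.2 CPM. For all cutting guides it was at -0.29 ± 0.13 (unadjusted p 0.0334), and at -0.39 without the 7 libraries, with an unadjusted p of 0.000395 and an adjusted p of 0.122 in the same test.

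FANCA stood in the SMAD3 deletion at 5.76, 7.19, 7.28 and 9.84 CPM against 8.95, 10.4, 11 and 12.4 CPM, an overlap of 1 library on each side, with a log2 fold change of -0.50 ± 0.24 (unadjusted p 0.0537). With the HPRT guide in set B it was at 0, 4.94, 7.31 and 7.75 CPM against 4.16 to 16.1 CPM, median 11.1. That gave -1.03 ± 0.64 (unadjusted p 0.126), and -0.39 without the 7 libraries. FANCD2 had group means of 22.5 to 46.3 CPM. The 4 Fanconi genes were all below 0 in the SMAD3 deletion (median -0.42), in HPRT targeting in set B (-0.66), in the LDAH deletion (-0.30), in HPRT targeting in both sets (-0.42) and for all cutting guides (-0.39); in HPRT targeting in set A 3 of 4 were (-0.10).

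The promoters of 34 of 40 members were matched by symbol in RefSeq windows that run from 250 bases before to 50 bases after the start (GRCh38.p14). E2F factors drive genes of S phase, and they bind TTTCCCGC, TTTGGCGC, TTTCGCGC or TTTGCCGC. On either strand 1 of these words was present in 5 of 34 members (14.7%), against 5.50% of 10528 genes of the table and 3.315% of 27058 promoters. The members were XRCC6, EXO1, FANCA, FANCC and FANCD2, and all Fanconi genes with a window are among them. The first word of 4 of them is shown in capitals, for the 3 matched genes of the Fanconi class, the class with the lowest median for all cutting guides, and for EXO1, each as read on the strand of its gene.
FANCA, chr16:89816786-89816845, minus strand: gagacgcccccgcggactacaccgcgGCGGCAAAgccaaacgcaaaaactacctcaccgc
FANCC, chr9:95317848-95317907, minus strand: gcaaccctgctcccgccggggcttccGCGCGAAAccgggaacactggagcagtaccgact
FANCD2, chr3:10026395-10026454, plus strand: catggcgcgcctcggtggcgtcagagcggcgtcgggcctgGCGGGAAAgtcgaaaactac
EXO1, chr1:241848162-241848221, plus strand: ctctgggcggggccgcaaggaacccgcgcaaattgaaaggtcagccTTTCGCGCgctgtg
The word starts 172 bases before the annotated start in FANCA and FANCC and 2 bases before it in FANCD2, and at base 5 after it in EXO1. FANCC holds a second word, TTTCCCGC, 46 bases before the start, and the word of XRCC6, GCGCCAAA, is at base 43 after it; these are not shown. For comparison 16 of 32 promoters of the cell cycle genes held a word. The CHR word TTTGAA, bound in genes of late cell cycle, was in 6 of 34 members (17.6%) against 9.98% of the genes of the table, and CCAAT was in 17 of 34 against 37.0%. A match is a description of letters, not of a bound site.

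Of the members, 12 are known to be transcribed mainly around S phase: CHEK1, H2AX, POLQ, EXO1, BLM, BRCA1, BRCA2, BARD1, RAD54L, FANCA, FANCD2 and FANCI. For all cutting guides 12 of 12 were below 0 (53.2% of all genes), with a median of -0.20 (log2). The other 28 members had a median of -0.06 with 20 below 0. For HPRT targeting in both sets 10 of 12 were below 0 (53.2% of all genes), median -0.34, against 18 of 28, median -0.10. Without the 7 libraries 12 of 12 were below 0 for the HPRT guide in both sets, median -0.29. Of them 5 were lower at an unadjusted p under 0.05, against 1 of 28 of the others and 3.82% of all genes. Of the 28, 23 were then below 0, median -0.14, against 51.8% of all genes and a median of -0.00751. In the deletions without the 7 libraries, the 12 lay on both sides of 0. They ran from -0.40 (FANCA) to 0.18 (POLQ) in the SMAD3 deletion and from -3.08 (RAD54L) to 0.81 (POLQ) in the LDAH deletion. For all cutting guides POLQ was then above 0, at 0.03. The difference between the 12 and the 28 was not tested.

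Genes of the cell cycle and targets of p53 were measured in the same comparisons. Of 40 cell cycle genes, 31 were below 0 for HPRT targeting in both sets and 38 for all cutting guides, against 53.2% of all genes in each, with medians of -0.18 and -0.16. At an unadjusted p under 0.05, 8 and 6 were lower (1.39% and 2.10% of genes) and 0 higher. In the LDAH deletion 21 of 40 cell cycle genes were below 0 (48.3% of genes), with a median of -0.02, while the S-phase-linked members had a median of -0.15. HMGB2, a chromatin protein of dividing cells, was at -0.49 ± 0.16 and -0.47 ± 0.14, and MCM6, a subunit of the replicative helicase, at -0.31 ± 0.12 and -0.30 ± 0.10. Of 30 p53 targets, 26 and 28 were above 0, with medians of 0.21 and 0.20, and 7 and 9 were higher at an unadjusted p under 0.05 (1.81% and 1.95% of genes). MDM2, the ubiquitin ligase of p53, was at 0.53 ± 0.12 and 0.55 ± 0.10, and CDKN1A, the p21 inhibitor, at 0.51 ± 0.14 in both. None of these genes passed the adjusted threshold in edgeR's quasi-likelihood test; the smallest adjusted p, that of MDM2, was 0.115. The parts of cell cycle and p53 activity in the values of the repair genes were not tested.

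Across libraries the S-phase-linked members followed the cell cycle genes within each set. Over the 10 libraries of set A that do not stand apart, the mean log2 CPM of both lists had a Pearson correlation of 0.809 and a Spearman correlation of 0.782; in set B, also over 10 libraries, they were 0.865 and 0.891. Leaving out the 2 libraries farthest from the median of the cell cycle genes gave 0.773 and 0.962. With the p53 targets the Pearson correlations of the S-phase-linked members were -0.616 for set A and -0.747 for set B (Spearman -0.685 and -0.661). The other 28 members followed in the same direction, at 0.735 and 0.733 with the cell cycle genes and -0.694 and -0.769 with the p53 targets. These are descriptions with no p, since the points share scaling and group and the members were chosen with results known.

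**Figure D4:**
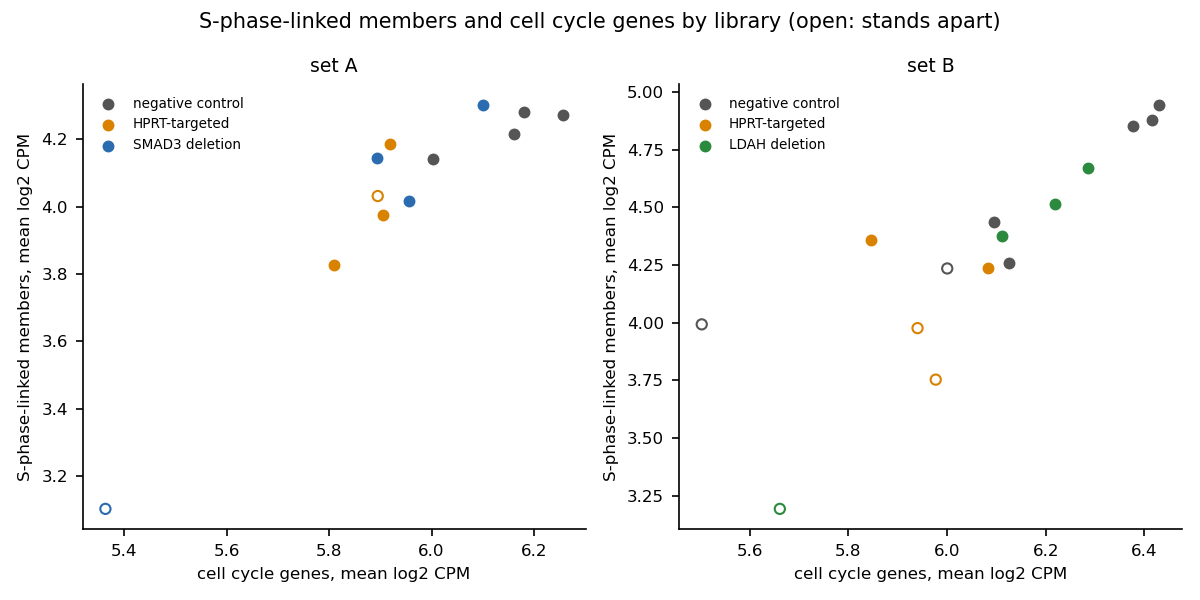
Mean log2 CPM of the 12 S-phase-linked members (vertical axis) against that of 40 cell cycle genes (horizontal axis), 1 point per library, in set A (left) and set B (right); open circles are libraries that stand apart. Over the filled points the Pearson correlation is 0.809 (set A) and 0.865 (set B), and the HPRT-targeted libraries lie to the lower left of most controls.

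Of 67 other genes of break repair, which do not belong to the 40, 43 were below 0 for HPRT targeting in both sets and 44 for all cutting guides, against 53.2% of all genes in each, with medians of -0.08 and -0.09. At an unadjusted p under 0.05, 4 and 3 were lower (1.39% and 2.10% of genes) and 0 were higher, and 0 were called. TIMELESS, of the fork protection complex, was at -0.36 ± 0.11 and -0.28 ± 0.11, USP1, which removes ubiquitin from FANCD2, at -0.33 ± 0.11 for HPRT targeting, and RMI2, a partner of BLM, at -0.46 ± 0.20 for all cutting guides.

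The largest differences of members between libraries were those of the 7 libraries that stand apart, and they were not shared evenly. In both sets, 9 of 40 members lay in all of these libraries below every other library of the set (22.5%), against 9.24% of 12055 genes: MDC1, RAD50, BRCA2, DCLRE1C, BRCA1, PRKDC, ATM, TP53BP1 and PARP1. Among the members RPA3 alone lay above every other library in both sets, as did 4.16% of genes. The libraries were found from their expression across all genes, members included, so these counts describe them and test nothing.

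MDC1 stood at 1.08 and 3.49 CPM in the 2 libraries of set A that stand apart and at 15.5 to 21.1 CPM in the other 10. In set B it stood at 0 to 2.15 CPM in 5 libraries and at 15.1 to 35.2 CPM in 10. In log2 units the means differed by -3.02 and -4.80. RAD50 was at 12.8 and 57.4 CPM against 117 to 179 CPM in set A, and at 8.18 to 27.9 CPM against 119 to 186 CPM in set B. BRCA2 was at 5.76 and 19 against 25.4 to 49.0 CPM and at 6.83 to 20.8 against 51 to 97.5 CPM. These 3 members were low in negative controls as well as in HPRT-targeted and deletion libraries that stand apart. XRCC5 differed by 0.06 and 0.20, and RPA3 was higher by 0.64 and 1.02 on the log2 scale.

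The difference was larger for members with long transcripts. Of 10 members whose longest transcript has at least 7000 bases (GENCODE 29), 7 were below every other library in both sets, against 27.2% of 1510 genes of that length. Of 10 members under 3000 bases 0 were, against 2.18% of 4727 genes. Across the 40 members the Spearman correlation between the difference and transcript length in sets A and B was -0.543 and -0.562, and across 12013 genes it was -0.291 and -0.360; genes are not independent replicates. DCLRE1C, at 3532 bases, and PARP1, at 3958 bases, were low despite moderate length, and ATR (8249 bases) and LIG3 (8400 bases) were not low in both sets. Members made up 0.171% and 0.215% of counts in the 2 libraries of set A and 0.193% to 0.230% in the 5 of set B, against 0.210% to 0.245% and 0.248% to 0.298% in the others.

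**Figure D5:**
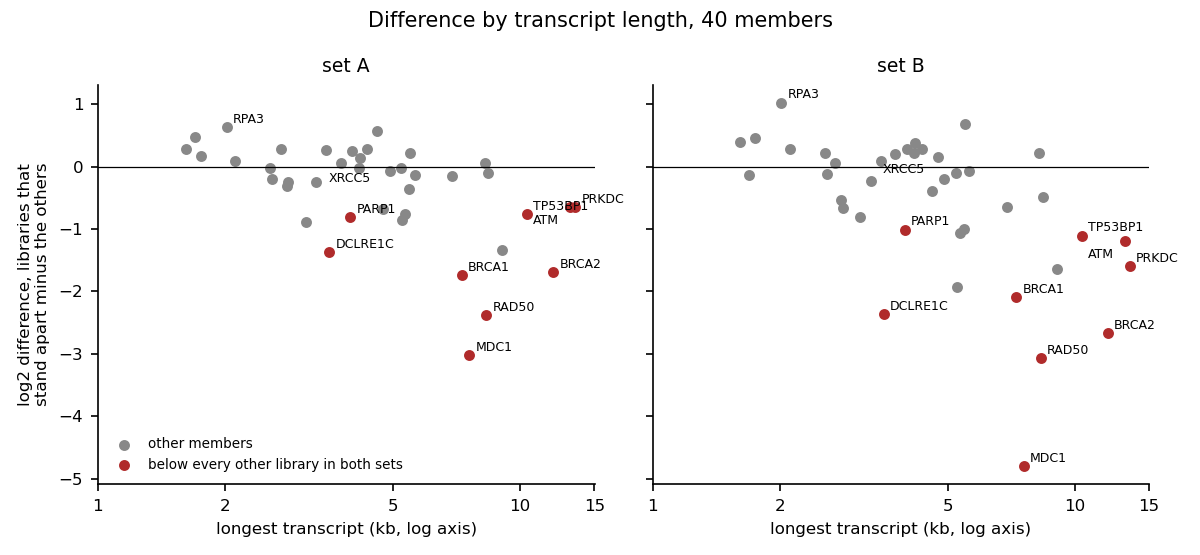
Log2 difference in mean level between libraries that stand apart and the other libraries of the set (vertical axis) against the longest annotated transcript in kilobases (horizontal log axis), 1 point per member, in sets A and B. The 9 members below every other library in both sets, in red, include 7 with at least 7000 bases.

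The 7 libraries widen the intervals of those members. For HPRT targeting in both sets, the log2 fold change of MDC1 was -0.67 ± 0.65 with all libraries and -0.27 without the 7, that of BRCA2 -0.46 ± 0.37 and -0.28 ± 0.12, and that of PRKDC -0.20 ± 0.29 and 0.02. In set B, 2 of 4 HPRT-targeted libraries stand apart, against 2 of 7 controls, so that a group mean over all libraries of set B compares unequal shares of them.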

How the data were processed

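What the authors deposited are whole-number read counts for 14008 genes in 27 libraries, from QuantSeq 3′ libraries read from 1 end over 86 cycles, as the labels' protocols say; 0 columns were left unused. The genome build hg38 and edgeR 3.24.3 are named in the submitters' processing notes. Aligner, counting program and use of strand: not given in the sources used here. A symbol was found for 13949 gene IDs.

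The count tests were run in edgeR 4.0.16 (R 4.3.3), after TMM scaling and filterByExpr by group. They were 2-sided quasi-likelihood tests, with p-values adjusted by Benjamini-Hochberg across every gene of a fit and a threshold of 0.05. The fits held 12 libraries (set A), 15 (set B), 19 (HPRT-targeted and negative control, with the set as covariate) or 27 (all). Their common dispersions were 0.0434, 0.195, 0.118 and 0.125. CPM are scaled by the TMM factors and given as mean ± SD; log2 levels use a prior count of 2. The SE of a fold change is its size over the square root of F, and intervals (95%) use the t distribution. The fits were also run on simulated counts with known changes. These counts held no libraries that stand apart, so that check does not cover them. Between 2 libraries of a group the chi-square over its degrees of freedom was 3.12 to 84.5, more than counting noise gives. Replicate numbers follow accession order and pair no libraries.

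Alternatives were DESeq2 1.42.0, DESeq2's size factors in edgeR, limma 3.58.1 voom with sample quality weights, no filter, a mean CPM of at least 10, only the compared groups in a fit, and leaving out each library. Leaving out the 7 libraries that stand apart was added after the data were seen. Every library's values and folds are given for members past the threshold and for the 3 members of smallest unadjusted p in each comparison with the negative control, for a class the level of its member with the highest mean CPM, and of other lists the 2 genes of smallest p. Values of MDC1, RAD50, BRCA2, PRKDC, RPA3, RBBP8 and FANCI without the 7 libraries, and of members in those libraries, were chosen after they were seen. The members and all lists were chosen with earlier results of these data known.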

Additional observations from a re-analysis of the deposited data

Results flagged for a closer look

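RAD54L in replicate 2 of the negative control of set A stood at 6.356 CPM, far from the other 3 libraries of that group, at 3.638 to 4.040 CPM. It was the only one of 84 groups of values, from 14 named members in 6 groups of libraries, that was flagged; by chance about 1 in 20 groups of this size would be.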

How the results depend on the processing

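Members called stayed at 0 in every comparison and alternative run, with 2 exceptions in the LDAH deletion, 1 by DESeq2 and 1 without the 7 libraries, RAD54L in both. Genes called, 0 by edgeR, were by DESeq2 1 for HPRT targeting in set A, 14 for the SMAD3 deletion, 14 for the LDAH deletion, 1 for HPRT targeting in both sets and 4 for all cutting guides. Limma voom with quality weights gave 2 for the SMAD3 deletion, 6 for HPRT targeting in both sets and 1 for all cutting guides. Without the 7 libraries there were 1, 1, 212, 1 and 3, in the order given for DESeq2. In the remaining 4 comparisons, the SMAD3 deletion against HPRT targeting had 17 by DESeq2, 5 by voom, 55 without the 7 libraries and 2 without HPRT-targeted set A replicate 3, and the LDAH deletion against HPRT targeting had 77 without the 7. The difference of the HPRT effects had 2 by DESeq2, 1 without the 7 and 1 without HPRT-targeted set A replicate 3, and that of the deletion effects had 4, 1 by voom, 68 without the 7 and 4 without LDAH deletion replicate 4. Leaving out each library in turn gave 0 to 3 for the LDAH deletion and 0 to 1 for all cutting guides; the 3 came without LDAH deletion replicate 4. The median of the members in the SMAD3 deletion was -0.0331 by voom and -0.0346 without the 7 libraries, and -0.16 to -0.0183 on leaving out each library, the smallest without SMAD3 deletion replicate 4; in HPRT targeting in set A it was -0.14 to -0.0597, the smallest without HPRT-targeted replicate 2. PRKDC for HPRT targeting in both sets turned to 0.0171 without the 7 libraries. FANCC for HPRT targeting in set A turned to -0.0821 by voom, to -0.10 without the 7 libraries and ranged from -0.11 to 0.35 on leaving out each library; it was negative without HPRT-targeted replicate 3. Causes were not tested. No paired analysis was possible because the labels give the libraries no shared replicate numbers. The numbers that end the titles alternate for the most part between HPRT-targeted and negative control libraries, but the labels do not say what they stand for, and they were not used to pair libraries. Half-widths of the 95% interval reached 1.15 log2 units in set A and 2.54 in set B. Width did not follow depth alone. For HPRT targeting in both sets, MDC1 and RAD50, which were low in the 7 libraries, had larger SEs than EXO1, which had fewer reads. The part of depth in these widths was not tested.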
